A study of Mus musculus with 12 samples.

Results

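The cytosolic ribosomal protein genes were taken as all probes with a single platform gene symbol made of Rpl or Rps and a digit, without Rps6k kinases and pseudogenes, and the probe with the highest mean was used for each gene. This gave 58 genes, 38 with Rpl names for the large subunit and 20 with Rps names for the small subunit, of 18069 named genes on the array. Together they had 77 of the 36227 probes. The names also brought in 1 gene whose product is not a ribosomal subunit, Rps19bp1, a binding partner of the Rps19 protein, and 5 paralogues or like-genes, Rpl3l, Rpl7l1, Rpl36al, Rpl39l and Rps27l.

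Hearts came from Balb/c mice, an inbred laboratory strain, that had been gavaged with DMA, an abbreviation the labels do not expand, or with the vehicle DMSO. The 4 groups were DMA at 24 h (30 mg/kg body weight), DMSO at 24 h, DMA at 48 h (30 mg/kg) and DMSO at 48 h, with 3 arrays each. The labels name the tissue as myocardium and no genetic change, and age and sex are not given in the sources used here. The labels call the arrays biological replicates, but the design text has the RNA of a group's hearts isolated together, so the p-values measure the spread between these samples, which may be technical. In whole heart tissue, fewer cells of a type and less RNA per cell cannot be told apart.

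Ribosomes are built from ribosomal RNA and a large set of small, mostly basic proteins, nearly all present in one copy, and every cell makes the proteins of both subunits in matching amounts. Their mRNAs are among the most abundant of a cell. They begin with a stretch of pyrimidines, the 5′ terminal oligopyrimidine motif, through which mTOR and the protein Larp1 set how strongly they are translated, so that protein output can change with little change of the mRNA. In the heart, making more ribosomes is a known step of hypertrophic growth.

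Around the first start site listed in RefSeq (GRCm38.p6), 50 bases are printed for genes named below at 24 h, 30 before it and 20 from it on. Genes with lower values under DMA come first, then those with higher values. Capitals mark the longest unbroken run of C and T on the printed strand (the first of 2 runs of the same length in Rps27l). The run lies across the start site in Rpl15, Rps24 and Rpl38. It lies before the start site in Rps7, Rpl34, Rpl5, Rpl13 and Rps27l, and after it in Rps13 and Rpl3l. So the capitals do not by themselves mark the 5′ terminal motif.

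Rpl15, chr14:18270967-18271016, minus strand: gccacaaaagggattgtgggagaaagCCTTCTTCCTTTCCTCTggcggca
Rps13, chr7:116334171-116334220, minus strand: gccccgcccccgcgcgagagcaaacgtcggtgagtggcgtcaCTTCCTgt
Rps7, chr12:28635934-28635983, minus strand: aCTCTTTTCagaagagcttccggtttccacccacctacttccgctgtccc
Rps24, chr14:24490648-24490697, plus strand: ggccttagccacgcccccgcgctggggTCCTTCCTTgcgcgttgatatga
Rpl38, chr11:114668550-114668599, plus strand: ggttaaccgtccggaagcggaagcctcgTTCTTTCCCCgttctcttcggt
Rpl34, chr3:130730379-130730428, minus strand: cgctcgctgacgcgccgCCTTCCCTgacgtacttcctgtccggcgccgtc
Rpl3l, chr17:24727796-24727845, plus strand: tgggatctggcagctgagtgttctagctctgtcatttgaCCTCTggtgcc
Rpl5, chr5:107900498-107900547, plus strand: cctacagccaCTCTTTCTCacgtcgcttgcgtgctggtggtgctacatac
Rpl13, chr8:123102320-123102369, plus strand: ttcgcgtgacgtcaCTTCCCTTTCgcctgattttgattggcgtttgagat
Rps27l, chr9:66946056-66946105, plus strand: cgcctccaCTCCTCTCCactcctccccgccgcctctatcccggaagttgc

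The longest run was 17 bases, in Rpl15, and the shortest 5 bases, in Rpl3l, the paralogue of Rpl3 known from striated muscle. Of the 58 genes, 47 were matched in the RefSeq promoter table, also with 58 start sites. A run of at least 8 pyrimidines stood anywhere in this window, before or after the start site, at 26 of these start sites (44.8%). The share was 20.2% of all 32851 start sites of the table and 21.7% of those of mitochondrial ribosomal protein genes. The letters CTTCC, on either strand, were found at 43.1% of the start sites of the cytosolic genes, 21.8% of all start sites and 40.6% of the mitochondrial ones. On the printed strand they can lie inside such a run, and how often they did was not counted. Genes on both sides of the 24 h comparison carried runs of 8 or more.

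Ribosomal protein genes lacked values far more often than the rest of the table. Of 696 possible values (the chosen probe of each of 58 genes on 12 arrays), 282 or 40.5% were missing, against 3.58% over all probes. A value on all 12 arrays existed for 15 of the genes (25.9%), against 69.0% of all probes, and 14 more had 10 or 11 values. The other 29 genes had between 0 and 7 values, which held for only 240 probes or 0.662% of the whole table. The rule of the highest mean can take a sparse bright probe over a fuller one of the same gene, as in Rpl27a and Rpl11 below. So part of these counts follows from the choice of probe, and all probes were not matched in level. Over all 77 probes of the 58 genes, 34.2% of values were missing and 32 probes had 0 to 7 values.

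The missing genes were of both subunits. Rpl41, the smallest protein of the ribosome, had no value on any array. The chosen probes of Rpl19, Rpl27a, Rpl35 and Rps29 had a value on 1 array only, DMA 24 h replicate 3. Their log2 intensities there were 13.61, 15.12, 15.03 and 10.63. Rpl27a and Rpl35 were the highest 2 values of any ribosomal protein gene on any array, and 15.12 was also the highest value of the whole array. Other probes of Rpl27a had 12 values each, with means of 13.34 and 8.73, and the brighter of these read 7.13 on DMA 24 h replicate 3. The other probe of Rpl35 also had 12 values, with a mean of 4.23. For a further 12 genes the chosen probe had 2 values. Among them were Rps19, the gene most often mutated in human Diamond-Blackfan anaemia, and Rpl11, which with Rpl5 and 5S RNA binds Mdm2 outside the ribosome. The other probe of Rpl11 had 11 values, with a mean of 12.03.

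Where a sparse gene had a value elsewhere, it stood near the top of the scale. The 29 genes with 0 to 7 values had 55 values outside DMA 24 h replicate 3, the lowest of them 13.66, and 50 were 14 or more, while array maxima lay between 14.53 and 15.12. Rps19 read 14.80 on DMA 48 h replicate 1 and Rps14, a small subunit protein, read 14.72 and 14.68 on DMA 48 h replicates 1 and 3 and 14.75 on DMSO 24 h replicate 3. Rpl39, whose product lines the exit tunnel of the large subunit, read 14.75 and 14.74 on DMA 48 h replicates 1 and 3. The reason for the missing values is not given in the sources used here and was not tested.

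The number of genes without a value varied between the arrays of a group. It was 30, 26 and 2 of 58 on the DMA arrays of 24 h, against 32, 29 and 19 on the DMSO arrays of 24 h. At 48 h it was 13, 29 and 16 on DMA arrays, against 31, 30 and 25 on DMSO arrays. DMA 24 h replicate 3 lacked only Rpl41 and Rpl3l. Among the 1807 probes with the brightest 5% of means, the share without a value lay between 0.553% on DMA 24 h replicate 3 and 17.2% on DMSO 24 h replicate 1.

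**Figure D1:**
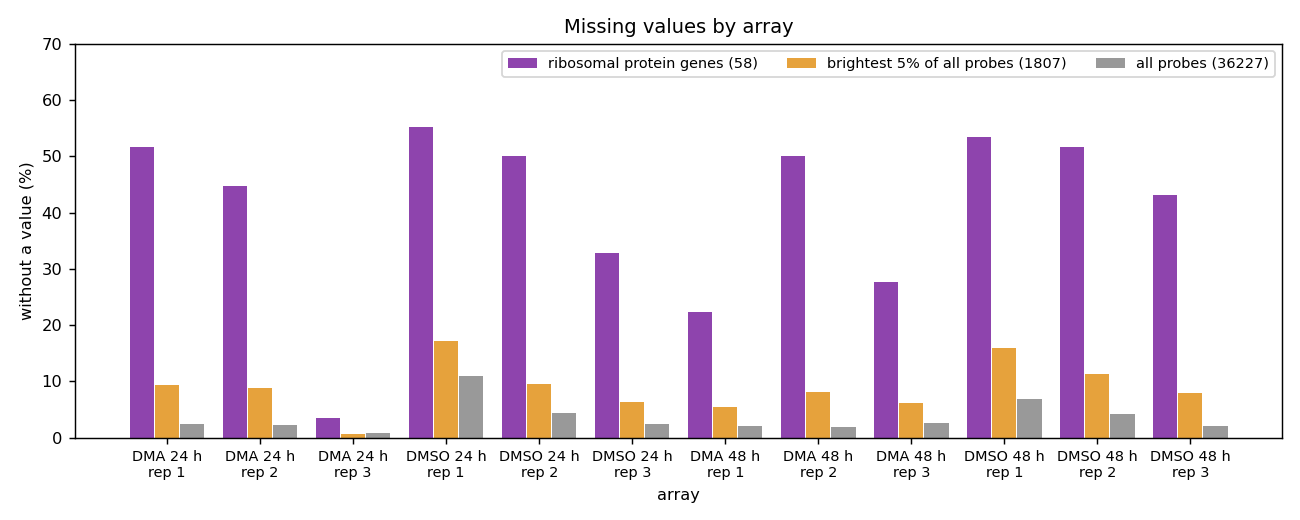
Share of probes without a value (percent, vertical axis) on each of the 12 arrays, for the 58 ribosomal protein genes (1 probe each), for the 1807 brightest probes and for all 36227 probes. On DMA 24 h replicate 3 the ribosomal protein genes lacked 3.45% of values; on the other arrays they lacked between 22.4% and 55.2%.

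Heart muscle markers also often lacked values. Of 15 heart muscle markers, 14 were on the array and 9 of these had 0 to 7 values, with 56.5% of values missing. Actc1 and Atp2a2, cardiac actin and the calcium pump of the sarcoplasmic reticulum, had none. Ttn and Tnnc1, titin and cardiac troponin C, had means of 14.21 and 12.52. Ckm, Myh6 and Ryr2 had values on all 12 arrays, with means of 11.47, 6.49 and 6.03. Rplp0, the core protein of the ribosomal stalk, which the name rule does not take, had 1 value, 13.66 on DMA 24 h replicate 3, and Rplp2, another stalk protein, had 5.

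**Figure D2:**
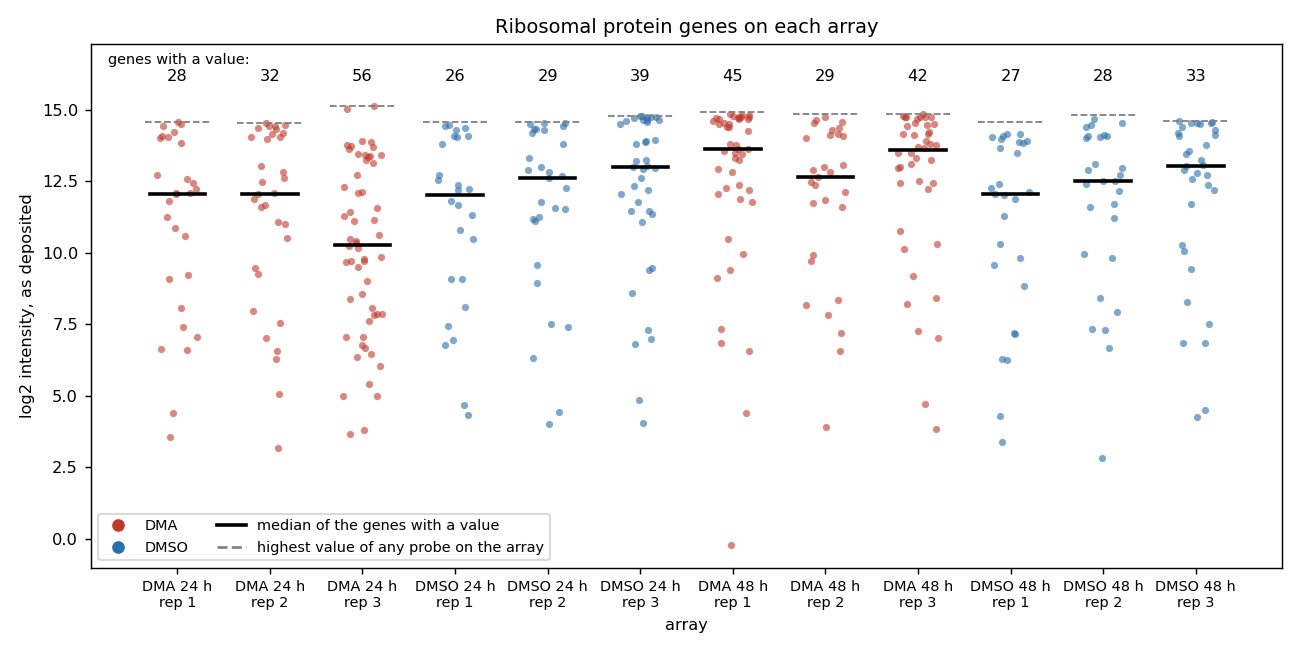
Deposited log2 intensity (vertical axis) of each ribosomal protein gene with a value, by array (DMA red, DMSO blue); black bars are medians, dashed lines the highest value of any probe on that array, and the numbers above count the genes with a value. Most points lie above 10 and the densest band lies just under the dashed lines, except on DMA 24 h replicate 3, where the median was 10.28.

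Levels were high but not uniform. Mean log2 intensities of the 57 genes with a value ran between 3.63 and 15.12, with a median of 13.45 and quartiles of 11.81 and 13.87, against a median of 6.17 over all probes. Of the genes with 0 to 7 values, 28 had a value on DMA 24 h replicate 3, between 9.03 and 15.12, and their means include it. Outside that array the lowest value of these genes was 13.66. The mean of Rps29, 10.63, is that array alone, and that of Rpl30, 12.18, is made of 9.68 there and 14.68 on DMA 48 h replicate 1. A mean of at least 10 was found for 48 of the 57 genes, as for 12.2% of all probes. A mean of at least 12 was found for 40, as for 4.42% of all probes. The genes enter by their brightest probe but the comparison takes every probe, so part of this excess follows from the choice. Of the 58 genes, 45 had 1 probe only. These are signals of single probes, which depend on each probe's sequence, so they do not rank the genes by amount of mRNA.

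The 9 probes below 10 were those of Rps2 (3.63), Rpl34 (4.31), Rpl17 (6.74), Rpl39l (6.89), Rps15a (7.51), Rpl7a (7.62), Rpl15 (8.21), Rps19bp1 (9.32) and Rps9 (9.39). For 5 of them, Rps2, Rpl34, Rpl17, Rpl7a and Rpl15, the platform annotation listed no RefSeq mRNA for the probe, which was the case for only 1 other gene, Rpl29. Several probes of one gene also differed widely: those of Rpl29 had means of 14.21 and 4.68, those of Rpl35 15.03 and 4.23, and those of Rps13 12.67 and 4.83. Signals this far apart for 1 gene do not give a level of its transcript. The brightest genes with a value on all 12 arrays were Rpl35a (mean 14.15), Rpl38 (13.99), Rpl13 (13.78), Rpl36al (13.76) and Rpl31 (13.70).

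Between replicates the spread was largest among the DMA arrays of 24 h. The median SD of the 28 genes with at least 2 values in each group was 0.385 in DMA and 0.319 in DMSO hearts at 48 h. At 24 h it was 2.00 in DMA and 0.259 in DMSO hearts, against 0.759 and 0.431 over all probes. Replicates 1 and 2 of DMA at 24 h alone gave 0.0735, against 0.256 over all probes. Among probes with a mean of at least 10, as 19 of the 28 genes had, the median SD differed from that of all probes. It was 0.306 in DMA and 0.200 in DMSO hearts at 48 h, lower than for the 28 genes. At 24 h it was 0.640 in DMA and 0.267 in DMSO hearts, and 0.145 for DMA replicates 1 and 2 alone.

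DMA 24 h replicate 3 stood apart from the rest. Its correlation with the median of its 5 companions of 24 h was 0.742 over all probes, while the other 11 arrays reached 0.927 to 0.963 with those of their time. On this array 24 of 33 ribosomal protein genes that could be compared (72.7%) lay more than 1 log2 unit below the median of those 5, against 22.7% of all probes. The median deviation was -3.60 for these genes and 0.35 for all probes. With a level of at least 10 on the other arrays, 87.5% of 24 genes but 35.6% of 3888 probes lay more than 1 unit lower, with medians of -4.05 and 0.04. Within that range the median of all probes changed with the level. It was -0.98 at a level of 12 to 13, 0.36 at 13 to 14 and -1.91 at 14 to 15, where the lower quartile was -4.04. The genes and the probes were not matched in level here. Mitochondrial ribosomal protein genes, which serve a separate ribosome, had a median of -1.21 over 71 genes, with 52.1% more than 1 unit lower.

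The deviation was not the same for every gene or probe. Rpl3, whose protein reaches close to the peptidyl transferase centre, read 6.36 on DMA 24 h replicate 3 against a median of 12.13 on the 5 companions. Rpl14, Rpl7l1, Rps7 and Rps26 were lower by more than 5 units as well, with deviations of -5.62, -5.58, -5.28 and -5.12. That of Rps26 was taken against only 2 companions with a value. Rpl13, Rpl5 and Rps27l, also bright on the other arrays, deviated by only -0.86, -0.51 and 0.40, and Rpl17 and Rps15a were higher, by 1.40 and 1.52. Other probes of the same gene could go another way: for Rpl7l1, the remaining 2 probes deviated by 1.12 and 1.41, while both further probes of Rpl7 deviated by -4.96 and -4.88. Why this array differed was not tested.

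**Figure D3:**
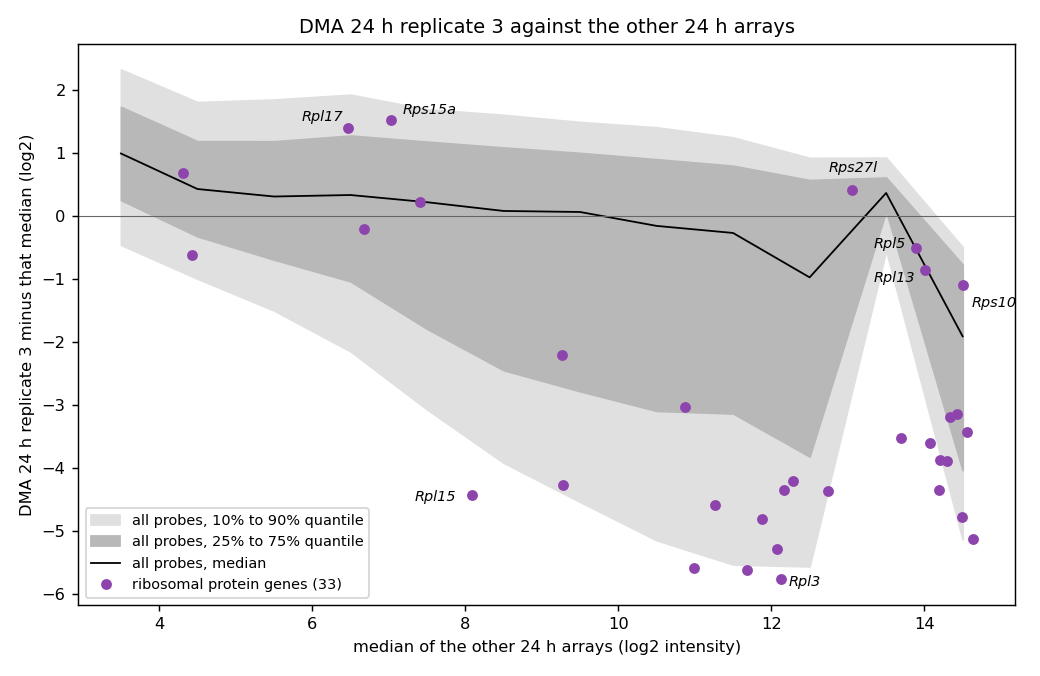
DMA 24 h replicate 3 minus the median of the other 24 h arrays (log2, vertical axis) against that median (log2 intensity, horizontal axis) for 33 ribosomal protein genes (points), with the median and quantile bands of all probes of the same level. Above a level of 10, 21 of 24 genes lie more than 1 unit below 0.

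The first comparison asked whether DMA changed the ribosomal protein mRNAs of the heart 24 h after the dose. No gene passed the test. By the chosen probe, 28 of the 58 genes (19 Rpl and 9 Rps) had at least 2 values in every group and could be tested, and 30 could not. The tested probes of Rps2, Rpl34, Rpl17, Rpl7a, Rpl15 and Rpl29 had no RefSeq mRNA in their annotation. Their differences at either time may therefore not be those of the gene's mRNA. By limma with Benjamini-Hochberg adjustment over 35401 probes, 0 of 28 were called and so were 0.0% of all probes. At an unadjusted p under 0.05, 0 of the 28 passed, against 3.03% of all probes.

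The fitted differences at 24 h were mostly negative with all arrays and near 0 in the median without that one array. The median difference of the 28 genes was -1.27, against 0.09 over all probes, with 8 positive and 20 negative, while 55.8% of all probes were positive. Of the 28, 18 lay below -1, as did 9.86% of all probes. Without DMA 24 h replicate 3 the median was -0.09 and 9 of 28 were positive, against 47.3% of all probes, and 1 gene, Rps2, lay below -1, against 4.62% of all probes. In that limma fit 0 genes were called. The unadjusted p was under 0.05 in 1 of the 28, against 3.18% of all probes. That gene, chosen after its value was seen, was Rpl3, with a difference of 0.75.

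Among the genes with lower values, Rpl8, a protein next to the catalytic centre of the large subunit, read 11.81, 11.88 and 7.07 in DMA hearts, against 11.67, 12.62 and 12.93 in DMSO hearts. Its difference was -2.15 (SE 1.03, adjusted p = 0.871 by limma) and -0.56 without DMA 24 h replicate 3. The groups overlapped, since DMSO replicate 1 was lower than DMA replicates 1 and 2.

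Rpl15, a large subunit protein, read 8.06, 7.97 and 3.67 in DMA hearts, against 8.09, 8.96 and 8.58 in DMSO hearts. All DMA values were lower than all DMSO values, but 2 of them by little; the difference was -1.98 (SE 0.95, adjusted p = 0.871 by limma), or -0.53 without replicate 3. Rps13, a small subunit protein, also did not overlap, at 12.72, 12.63 and 8.37 in DMA hearts, against 12.74, 13.33 and 13.02 in DMSO hearts, with a difference of -1.79, or -0.35 without replicate 3.

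Rps7 of the small subunit read 12.06, 12.08 and 6.79 in DMA hearts, against 11.82, 12.69 and 12.32 in DMSO hearts. Rps24, another of the genes mutated in human Diamond-Blackfan anaemia, read 12.45, 11.62 and 8.07 in DMA hearts, against 12.55, 12.28 and 12.06 in DMSO hearts. Rpl38, which in mouse embryos is needed to translate a set of Hox mRNAs, read 14.49, 14.33 and 9.72 in DMA hearts, against 14.46, 14.55 and 14.71 in DMSO hearts. In each of the 3 genes the other 2 DMA arrays lay among or close to the DMSO arrays, and the differences of Rps7, Rps24 and Rpl38 changed to -0.21, -0.26 and -0.16 without replicate 3, against -1.96, -1.59 and -1.72 with it.

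Rpl34, a large subunit protein, was the one gene with all DMA values above all DMSO values at 24 h, at 4.40, 5.08 and 4.99 in DMA hearts against 4.32, 4.02 and 4.05 in DMSO hearts. Its difference was 0.69 (SE 0.44, adjusted p = 0.871 by limma) and 0.61 without replicate 3. This probe was dim, with a mean below the median of all probes. Counted over the 28 genes, all DMA values were higher in 1, against 4.51% of all probes, and lower in 5 (Rpl15, Rpl27, Rpl39l, Rps13 and Rps2), against 3.48%.

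Rps2, a small subunit protein at the mRNA channel, was 1 of these 5. It read 3.56, 3.20 and 3.81 in DMA hearts, against 4.70, 4.43 and 4.85 in DMSO hearts, and differed by -1.14 (SE 0.93, adjusted p = 0.871 by limma), or -1.28 without replicate 3. Its probe was the dimmest of all 57, and a brighter probe annotated to both Snora64 and Rps2 read 8.41, 8.60 and 5.58 in DMA hearts, against 8.52, 7.53 and 7.73 in DMSO hearts, with overlapping groups. Rps2 at 24 h and this second probe were chosen after their values were seen.

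Rpl3l had no value on DMA 24 h replicate 3 and read 12.24 and 12.83 in DMA hearts, against 12.36, 11.58 and 12.21 in DMSO hearts. Rpl5, which carries 5S RNA into the large subunit, read 14.04, 13.98 and 13.38 in DMA hearts, against 13.80 and 13.05 in DMSO hearts, where replicate 1 had no value. Rpl13 of the large subunit read 14.01, 14.06 and 13.16 in DMA hearts, against 14.04, 13.00 and 13.23 in DMSO hearts. For Rpl3l, Rpl5 and Rpl13 the groups overlapped, and the differences were 0.48, 0.38 and 0.32 (SE 0.46, 0.40 and 0.38). Without DMA 24 h replicate 3 those of Rpl5 and Rpl13 were 0.59 and 0.61, and that of Rpl5 was 0.0046 without DMSO 24 h replicate 3.

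Rpl17, at the exit tunnel of the large subunit, had a difference of 0.37 that turned to -0.10 without DMA 24 h replicate 3. Rps27l, a p53-responsive paralogue of Rps27 in human cells, had a difference of 0.26 with and without it. Adjusted p-values of the 28 genes lay between 0.871 and 0.953 by limma.

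**Figure D4:**
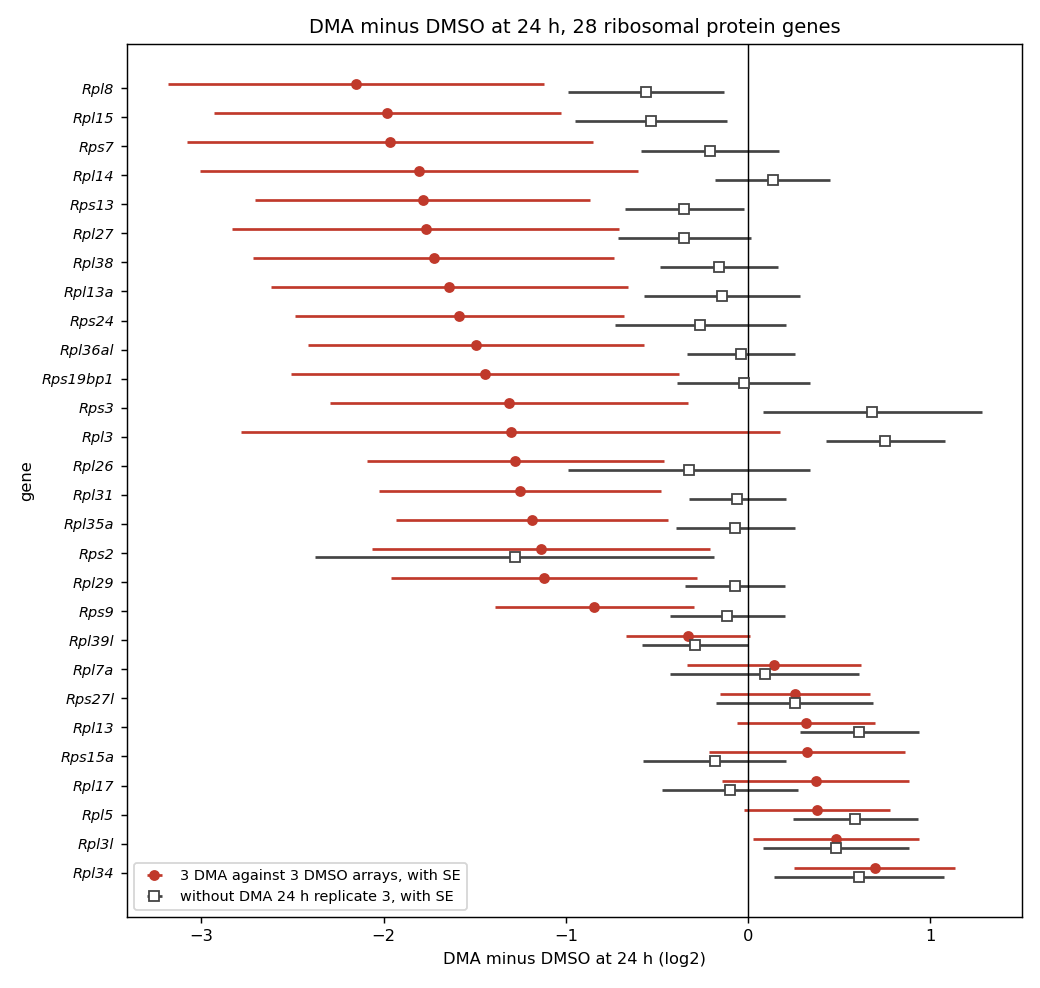
DMA minus DMSO at 24 h (log2, horizontal axis) for the 28 tested ribosomal protein genes, with the SE of the fit, for all arrays (red circles) and without DMA 24 h replicate 3 (open squares). With all arrays 20 genes lie left of 0, with a median of -1.27; without that replicate the median is -0.09.

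The second comparison asked the same at 48 h. Differences were small and no gene passed the test: 0 of 28 were called, as were 0.0% of all probes, and 0 had an unadjusted p under 0.05, against 1.4% of all probes. The median difference was -0.08, against 0.01 over all probes, with 9 positive and 19 negative, while 51.6% of all probes were positive. The groups did not overlap in 1 gene with DMA higher, again Rpl34, against 4.42% of all probes, and in 0 genes with DMA lower, against 2.79%.

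Since the 24 h arrays entered the shared estimate of the spread, the median SE of the 28 genes was 0.871 with all 12 arrays and 0.344 in a fit of the 6 arrays of 48 h. That narrower fit also called 0 of the 28, with 0 at an unadjusted p under 0.05, against 2.2% of all probes. DMA 48 h replicate 3 correlated least with the other arrays of its time, at 0.940, against 0.959 to 0.963 for the others. Without it the median difference was -0.18 and 6 of 28 were positive.

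Rpl34 read 4.40 and 4.73 in DMA hearts at 48 h, where replicate 2 had no value, against 4.30, 2.85 and 4.28 in DMSO hearts. The lower DMA value lay close to the higher DMSO values, and the difference of 0.75 (SE 0.49 in the fit of all 12 arrays, as for the genes below) was 0.27 without the low DMSO 48 h replicate 2. Rpl7a, a large subunit protein, read 8.34 and 8.21 in DMA hearts, against 6.29, 7.92 and 8.28 in DMSO hearts, with a difference of 0.78 (SE 0.53). Here DMSO replicate 1 was low and the groups overlapped, and the difference was 0.17 without that array and also with the replicate block.

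Rps15a of the small subunit read 7.33, 7.84 and 8.42 in DMA hearts, against 7.15, 7.35 and 7.50 in DMSO hearts, a difference of 0.53 (SE 0.48). The remaining positive differences by the naming rule were 0.20 for Rpl17, 0.32 for Rpl26, which in human cells also binds the p53 mRNA, and 0.31 for Rps19bp1. Without DMA 48 h replicate 3 the differences of Rps15a, Rpl17, Rpl26 and Rps19bp1 were 0.25, -0.03, 0.02 and 0.04, and leaving out another array turned Rpl26 to -0.18.

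Rps2 had the lowest difference, -1.44 (SE 1.04), and its probe was among the dimmest. It read -0.22, 3.90 and 3.83 in DMA hearts, against 3.39 and 4.50 in DMSO hearts, where replicate 2 had no value. One DMA array set the difference, which was -0.08 without DMA 48 h replicate 1.

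Rpl13a, which in human macrophages also acts outside the ribosome in the GAIT complex, read 11.78, 11.74 and 10.32 in DMA hearts, against 11.89, 11.70 and 12.19 in DMSO hearts. Its difference was -0.65, or -0.17 without DMA 48 h replicate 3. Rps3, at the mRNA entry site of the small subunit, read 13.76, 14.30 and 13.33 in DMA hearts, against 14.40 and 14.28 in DMSO hearts, a difference of -0.54, or -0.31 without DMA 48 h replicate 3. Rps27l, Rpl31 and Rpl13 had differences of -0.41, -0.32 and -0.28, with overlapping groups in each, and that of Rps27l was -0.18 without the same array. All 28 genes had an adjusted p of 1 by limma.

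**Figure D5:**
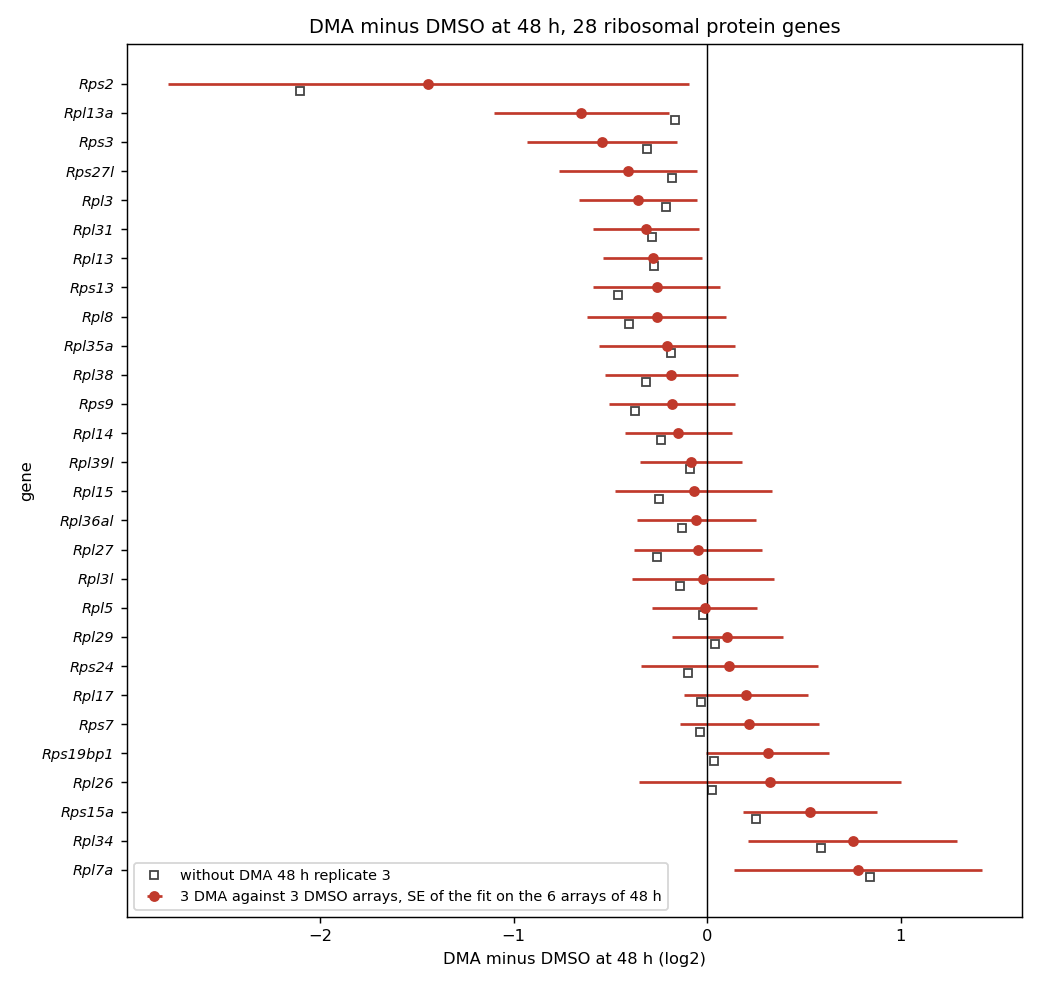
DMA minus DMSO at 48 h (log2, horizontal axis) for the 28 tested ribosomal protein genes, with the SE of a fit on the 6 arrays of 48 h (red circles) and as values without DMA 48 h replicate 3 (open squares). With all arrays, the genes other than Rps2 lie between -0.65 and 0.78.

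Whether the DMA effect differed between 48 h and 24 h was tested as an interaction, which was called in 0 of 28 genes and in 0.0% of all probes, and had an unadjusted p under 0.05 in 0 genes, against 1.96% of all probes. The 48 h effect exceeded the 24 h effect in 22 of 28 genes, against 47.3% of all probes, with a median of 0.96. Without DMA 24 h replicate 3 it did so in 14 of 28, with a median of 0.04. Rpl15, Rpl26 and Rps7 had the smallest p among the positive ones, at 1.91, 1.60 and 2.18, or 0.46, 0.65 and 0.42 without that array. Rps27l, Rpl13 and Rpl3l had it among the negative ones, at -0.67, -0.60 and -0.51, or -0.67, -0.89 and -0.51 without it.

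Array by array, the 15 genes with a value on all 12 arrays were also compared by replicate number. At 24 h their mean DMA minus DMSO difference was 0.06 for replicate number 1, -0.27 for number 2 and -3.82 for number 3. At 48 h it was -0.25, 0.04 and -0.27. The pair with DMA 24 h replicate 3 differed most, and the other 5 pairs lay between -0.27 and 0.06.

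The likeness of these 15 genes over the arrays was described by correlating their deviations from the group means. The median correlation between 2 of them was 0.91 over 12 arrays, with 99 of 105 pairs positive, and 0.22 over 11 arrays without DMA 24 h replicate 3, with 71 of 105 positive. Since these arrays share their scaling, the values only describe this table. Rpl38, Rpl36al, Rpl31, Rps7 and Rpl14 followed the median of the other genes most closely over 12 arrays, at r between 0.98 and 1.00, and Rps27l, Rpl13, Rpl26, Rpl13a and Rpl15 least, Rps27l at -0.01. This order changed without DMA 24 h replicate 3, where Rpl38 and Rpl26 had the highest r, 0.92 and 0.89, Rpl14 had 0.35, and Rpl13a had the lowest, -0.32.

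Paralogues of ribosomal protein genes could be set beside each other only in part. Rpl3 read 12.58, 12.48 and 6.36 in DMA hearts at 24 h, against 11.77 and 11.79 in DMSO hearts, and differed by -1.30 with replicate 3 and by 0.75 without it. Its muscle paralogue Rpl3l, with no value on that array, differed by 0.48. At 48 h Rpl3 and Rpl3l differed by -0.36 and -0.02.

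Rpl39l, a paralogue of Rpl39 known from testis, read 6.60, 6.58 and 6.48 in DMA hearts at 24 h, against 6.76 and 7.0 in DMSO hearts, a small difference of -0.33 (SE 0.34) in a dim probe, while Rpl39 itself could not be tested. Rpl22 and Rps4x, the X-linked form of Rps4, were not tested either, since their brightest probes had 4 and 6 values. Rps6, Rpl10, Rpl10l, Rpl22l1 and Rps4l were not analysed here, and Rps27 only through a probe that shares its annotation with Rps27rt.

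The genes around the ribosome gave no call at either time. Of the rest of the cytosolic ribosome, 3 were tested. Fau, whose product is a small subunit protein made as a fusion with a ubiquitin-like domain, read 13.08, 12.86 and 8.48 in DMA hearts at 24 h, against 12.95, 12.72 and 12.80 in DMSO hearts, so its difference was -1.35 with replicate 3 and 0.15 without it. Rpsa and Rplp1 differed by -0.47 and -0.38 at 24 h and by 0.14 and 0.24 at 48 h, where both turned negative (-0.11 and -0.0973) without DMA 48 h replicate 3.

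Of 40 translation factors tested, 0 were called at either time, and 20 were positive and 20 negative at 24 h. Eif4e, the cap-binding factor, read 12.11, 12.12 and 6.67 in DMA hearts at 24 h, against 12.04, 12.73 and 12.92 in DMSO hearts, with a difference of -2.26, or -0.45 without replicate 3. Etf1 and Eef1a1, a release and an elongation factor, differed by -0.83 and -0.86, or -0.50 and -0.33 without it. At 48 h Eif5b, Eef1g and Eif4h had the smallest p, with differences of 0.65, -0.46 and -0.41, or 0.69, -0.28 and 0.13 without DMA 48 h replicate 3.

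Of 58 ribosome assembly genes 0 were called, and 2, Nop14 and Gnl2, had an unadjusted p under 0.05 at 24 h, a share close to the 3.03% of all probes. Nop14, needed for the small subunit, read 8.80, 8.75 and 7.18 in DMA hearts, against 9.83 and 9.61 in DMSO hearts, and differed by -1.48, or -0.95 without replicate 3. Gnl2, a nucleolar GTPase of large subunit assembly, read 8.18, 8.28 and 9.27 in DMA hearts, against 8.14, 5.84 and 7.67 in DMSO hearts. Tsr1 differed by -1.78 at 24 h, or -0.48 without replicate 3. Noc3l, Nop16 and Bop1 differed by -1.23, -0.44 and 0.60 at 48 h, or -0.016, -0.0193 and 0.74 without DMA 48 h replicate 3.

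Of 68 mitochondrial ribosomal protein genes 0 were called. Their median difference at 24 h was -0.55 with all arrays and 0.00 without DMA 24 h replicate 3, and at 48 h it was -0.06. Mrpl45 read 7.99, 7.97 and 9.62 in DMA hearts at 24 h, against 6.16 and 6.84 in DMSO hearts, and differed by 2.03 (SE 0.73, adjusted p = 0.871 by limma). Mrpl28 and Mrpl10 differed by 0.99 and 0.88 at 24 h, and Mrps7, Mrps26 and Mrps24 by -0.48, -0.50 and -0.28 at 48 h, or -0.19, 0.13 and -0.26 without DMA 48 h replicate 3.

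Of 33 genes of mTOR control 0 were called. Mtor itself read 8.79, 9.16 and 10.34 in DMA hearts at 24 h, against 8.90, 8.12 and 8.42 in DMSO hearts, a difference of 0.95 (SE 0.43), or 0.50 without replicate 3. Rragb and Lamtor2, parts of the lysosomal anchor of mTOR complex 1, differed by -1.07 and -1.80 at 24 h, again through replicate 3 for the most part (-0.27 and -0.20 without it). At 48 h Mlst8, Akt1s1 and Akt1 differed by -0.81, -0.62 and -0.46, or -0.68, -0.35 and -0.54 without DMA 48 h replicate 3.

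Of the markers of other cell types that a heart can hold, 0 were called at either time among those tested for endothelium (9), fibroblasts (7), smooth muscle and pericytes (6), lymphocytes (7), macrophages (5), blood and neutrophils (5) and mesothelium and fat (3), nor among the 5 tested markers of heart muscle. Their part in the values of the ribosomal protein genes was not tested.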

How the data were processed

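RNA of 12 mouse heart samples was measured on 1-colour arrays. Per the labels' protocols, RNA was extracted from myocardium with Trizol, and biotin-labelled cRNA made from its polyA fraction was stained with streptavidin-Cy5. The authors deposited log2 values of 36227 probes; background correction, normalization and the handling of missing values are not given in the sources used here. Array medians were 6.03 to 6.04 at 24 h and 6.35 to 6.36 at 48 h, so DMA and DMSO were compared within a time. Gene symbols came from the platform annotation (21615 probes with 1 symbol, 681 with several, 13931 with none). Of probes named Rpl or Rps, 20 were left out (7 Rps6k, 2 pseudogenes, 11 with several symbols).

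Probes with at least 2 values in each group (35401; 826 were not tested) entered a linear model with 1 mean per group over 12 arrays (limma 3.58.1 under R 4.3.3, moderated by eBayes), with Benjamini-Hochberg adjustment over all of them and a threshold of 0.05. Missing values were left missing in this model, and the number of arrays limits the precision. The fit was tested on simulated data. Plots used matplotlib 3.10.9 in Python 3.11.15.

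Members and lists were chosen with earlier results of these data known. Genes named at 24 h and 48 h were the 6 of smallest unadjusted p per direction (3 for the difference between the times), the genes without or with 1 value, the 5 brightest complete genes, paralogue pairs, the 5 genes most and least like the median of the others, and 3 genes per further list and time. Over all probes, deviations of same-numbered DMA and DMSO samples correlated at 0.105 to 0.19 at 24 h and 0.276 to 0.335 at 48 h. Those of other numbers correlated at -0.208 to -0.0118. Deviations within a group sum to 0, so these negative values follow in part from the positive ones and add no separate evidence. The numbers were taken, from the data, to pair samples within a time. Over ribosomal protein genes, same-numbered samples correlated at -0.298, 0.174 and -0.155 at 24 h and at 0.443 to 0.592 at 48 h. The main model did not use this pairing. Alternatives covered the block, array weights, missing values, probe choice, scaling and each array left out.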

Additional observations from a re-analysis of the deposited data

How the results depend on the processing

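No ribosomal protein gene was called at 24 h, at 48 h or for the difference between the times under any alternative run, while over all probes the number called, 0 with all arrays, reached 14 at 24 h without DMA 24 h replicate 2. With the replicate number as a block, which uses the pairing, the median difference was -1.27 at 24 h (7 of 28 positive) and -0.08 at 48 h (9 positive), and no call changed. Leaving out 1 array at a time gave medians of -1.82 to -0.09 at 24 h and -0.18 to 0.02 at 48 h, with 8 to 9 positive at 24 h and 6 to 15 at 48 h. The median at 24 h was -0.16 with array weights. Only genes with values on all 12 arrays gave 2 of 15 positive at 24 h and 3 of 15 at 48 h. Genes with a mean of at least 10 (chosen after seeing the data) gave 4 of 19 at each time. Of all tested probes with such a mean, 52.1% were positive at 24 h and 51.9% at 48 h. Both sets hold fewer genes by construction. The mean of all probes of a gene gave 15 of 36 positive at 48 h. Filling bright missing values with the array's highest value gave 31 of 55 positive at 48 h and a median of 0.09 there, against -0.92 at 24 h. These highest values were 14.91, 14.87 and 14.86 on the DMA arrays of 48 h and 14.56, 14.83 and 14.61 on the DMSO arrays. The sign of a filled gene at 48 h therefore follows in part from the fill by construction. The share of missing values was 34.2% over all 77 probes and 44.4% over the 52 genes without the binding protein and like-genes. Rpl17 at 24 h was -0.043 with array weights and ranged over -0.0997 to 0.69 as arrays were left out. At 48 h, Rpl17 ranged over -0.0316 to 0.33 and Rpl26 over -0.18 to 0.88. Leaving out DMA 24 h and 48 h replicates 3 together, also chosen after seeing the data, gave Rpl17 -0.0997 and -0.0316. Rps24 at 24 h was 0.0217 with array weights, and Rpl5 was -0.0113 with bright missing values filled. The cause of these reversals was not tested. For 30 of the 58 genes the chosen probe had too few values to be tested. Some of these genes had a further probe with 11 or 12 values. Those of Rpl27a, Rps4x and Rpl11 had means of 13.34, 11.88 and 12.03, and the mean of all probes took in 36 genes.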

Other observations

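Of 11 probes with several symbols, which the name rule leaves out, 7 had 11 or 12 values and means of 3.69 to 10.62, and 4 had at most 5 values and means of 11.06 to 14.22. The probe annotated to Rpl37 and Rpl37rt had 1 value, 11.06 on DMA 24 h replicate 3. The probe of Rps27 and Rps27rt read 13.84 on that array and 14.59 on DMA 48 h replicate 1, and the probe of Rps21 and Csn2 read 10.93 and 14.76 on the same 2 arrays. Over all probes, 54 had a value on 1 array only, and for 53 of them that array was DMA 24 h replicate 3. The 15 genes with a value on all 12 arrays stood at a median percentile of 74.89 among the probes of that array, against 95.47 to 97.32 on the other 11.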
